A study of Macaca mulatta with 8 samples.

Results

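The CXC chemokine genes described here are those of 10 gene symbols, CXCL1, CXCL2, CXCL3, CXCL5, CXCL6, CXCL8, CXCL9, CXCL10, CXCL11 and CXCL16, and their members were found by symbol in the count files. Of these, 9 were among the 35432 genes listed, CXCL2 was not listed under that symbol, and 8 had enough reads to be tested. CXCL5 was listed but fell below the filter on low counts. The libraries came from primary microglia of 4 adult rhesus macaques (R07110, R12016, R02046 and R14143), isolated from subcortical white matter and kept for 8 days with M-CSF (10 ng/mL in the labels, a different concentration in the study's methods). From each animal, one culture was exposed at day 7 to 10 µg/mL ultrapure LPS (uLPS, a TLR4 agonist), and another received the same uLPS 1 h after 5 µM MRS2578, an antagonist of the nucleotide receptor P2RY6. RNA was collected 16 h after uLPS, and poly(A) RNA was sequenced as 8 libraries, 1 per animal and condition. The comparison asked which chemokine transcripts of uLPS-exposed cells differed with MRS2578. The study calls the antagonist selective but not fully specific, and block of the receptor was not measured in these libraries. All 8 libraries had uLPS, so levels in resting cells are not analysed here. In these bulk libraries, fewer cells of a type and less RNA per cell cannot be told apart.

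CXC chemokines are small secreted proteins in which a single residue separates the first pair of cysteines. Members with a glutamate-leucine-arginine (ELR) triplet just before these cysteines bind CXCR2, some of them CXCR1 as well, and draw neutrophils. By contrast, CXCL9, CXCL10 and CXCL11 lack the triplet, are induced by interferons and draw activated T cells and NK cells through CXCR3. CXCL16 is made as a transmembrane protein that binds CXCR6, and proteases such as ADAM10 and ADAM17 release it from the membrane. Microglia and macrophages transcribe both groups after Toll-like receptor stimulation, through NF-kB for the ELR group and through interferon in addition for the CXCR3 group.

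The property that divides the groups can be read in the macaque genes. The 24 bases below run 5′ to 3′ along each gene's own strand, from the RefSeq coding sequences of build Mmul_10, and each lies in exon 2. Capitals mark the 3 codons before the first cysteine of the motif, which are those of ELR in the first 4 genes and of other residues in the last 4.
CXCL1 (chr5:59940570-59940593, minus strand): GAATTGCGCtgccagtgcttgcag
CXCL3 (chr5:59748378-59748401, plus strand): GAACTGCGCtgccagtgcttgcag
CXCL6 (chr5:59976667-59976690, minus strand): GAGCTGCGTtgcacttgtttacac
CXCL8 (chr5:60072901-60072924, minus strand): GAACTTAGAtgtgagtgcataaag
CXCL9 (chr5:57715876-57715899, plus strand): AAGGGTCGCtgttcttgtatcaac
CXCL10 (chr5:57699109-57699132, plus strand): ACTGTACGCtgtacctgcatcagc
CXCL11 (chr5:57685472-57685495, plus strand): AGAGGACGCtgtctttgcataggc
CXCL16 (chr16:4564592-4564615, minus strand): ACTGGAAGCtgtcattgtagtaaa

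The 7 tested members other than CXCL16 lie on chromosome 5 in a pair of clusters, the ELR genes between 59748163 and 60073899 and the CXCR3 ligands between 57684576 and 57720670. CXCL16 stands apart on chromosome 16, at 4558297 to 4565692. CXCL1 and CXCL3 are near copies: 289 of 306 aligned coding bases (94.4%) are identical, against 64.7 to 76.9% for the other pairs of tested ELR genes. CXCL2 and CXCL5 had no gene model under their symbols and were not aligned, so reads shared with them could not be judged. Only reads that mapped to 1 place were counted, so reads that fit CXCL1 and CXCL3 equally were left out, and the level of each is uncertain. CXCL10 and CXCL11 are overlapped on the other strand by ART3, which had 0 to 3 counts per library. The RefSeq models of CXCL1, CXCL3 and CXCL10 begin at the start codon and lack untranslated sequence, and that of CXCL3 is marked as partial. For this reason no per-length level was computed and levels are not compared between genes.

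The letters GGAATTTCC, a form of the NF-kB site, were searched on both strands in the 250 bases before the annotated start of each gene. They occurred in 4 of the 8 tested members, CXCL1, CXCL3, CXCL8 and CXCL10, and in 52 of 20782 such windows in the genome (0.25%). Matches in capitals are shown with their flanks, 5′ to 3′ along the gene's strand; that of CXCL10 is on the other strand and so reads as the reverse complement.
CXCL1 (chr5:59940946-59940974): tggagctccgGGAATTTCCctggcctggg
CXCL3 (chr5:59747997-59748025): tggagctctgGGAATTTCCctgacccggc
CXCL8 (chr5:60074012-60074040): tgcaaattgtGGAATTTCCtctgacataa
CXCL10 (chr5:57698228-57698252): gcagagGGAAATTCCatacttgtag
The match lay 156 to 148 bases before the start codon in both CXCL1 and CXCL3, 131 to 123 bases before the annotated transcript start of CXCL8, and 244 to 236 bases before the start codon of CXCL10. The letters of an interferon-stimulated response element (GAAA, any 2 bases, GAAA), searched in the same way, were in 0 of the 8 member windows and in 3.03% of all windows. For CXCL1, CXCL3 and CXCL10 the window ended at the start codon, so it reached less far before the transcript start. Letters further upstream and other forms of the NF-kB site were not searched in any gene. CXCL1 and CXCL3 are near copies with the match at the same position, so their matches are not separate cases. These matches are descriptions of letters, and no factor's binding was measured in these libraries.

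Total counts ranged from 9231109 to 32790348 per library. Levels below are counts per 1000000 counts of the library (CPM), scaled by the trimmed mean of M values, and 3 counts, the limit that a count of 0 allows, corresponded to 0.0914 to 0.32 CPM. For donor R02046 the sources disagree. In the per-library values listed with the study, 6 of 8 columns were proportional to the library that carries the same condition in its label, and the other 2, both of R02046, carried the opposite condition. Neither the labels nor the listed values say which holds. The fits of the members are therefore given as labelled, after the exchange of both R02046 libraries, and without this donor. The exchange turns the sign of each R02046 difference and leaves its levels as they are.

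The labelled cell type was checked against fixed markers. The 11 listed microglia and macrophage genes of 12 summed to 3950 to 5150 CPM, but the homeostatic markers TMEM119 (0 to 0.316 CPM) and CX3CR1 (0.0508 to 2.21 CPM) were at or near 0. P2RY12, another such marker, was at 5.7 to 13.3 CPM. Neutrophil markers summed to at most 0.457 CPM, with 4 of 8 at 0 in all libraries. Those of fibroblasts and mural cells summed to 80.7 to 985 CPM, the highest value being R14143 with uLPS alone. The sums were 5.79 to 50.8 CPM for T and NK cell, 26 to 106 for astrocyte, 61.3 to 75.8 for oligodendrocyte and 155 to 291 for endothelial markers. P2RY6 itself was at 49.5 to 110 CPM.

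Using the labels as deposited, the quasi-likelihood test of edgeR, blocked on donor, called none of the 8 members, and all 8 had a fitted log2 fold change below 0 with MRS2578. At an unadjusted p under 0.05 there were 3, CXCL9, CXCL10 and CXCL11. DESeq2 and edgeR's likelihood ratio test also called 0 of 8. Over all genes the same test called 0 of 12131 (0%), with 624 at an unadjusted p under 0.05. With the R02046 libraries exchanged it called 75 genes (0.618%), of which 63 were lower with MRS2578 (0.519%), and 1 member, CXCL16. Those calls were unstable over donors: after the exchange, 0 genes were called without R07110, 5 without R12016 and 918 without R14143. Without R02046 it called 0 of 12295 genes (0%), 1670 of them at an unadjusted p under 0.05, and 0 of 8 members, of which 7 were at an unadjusted p under 0.05.

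**Figure D1:**
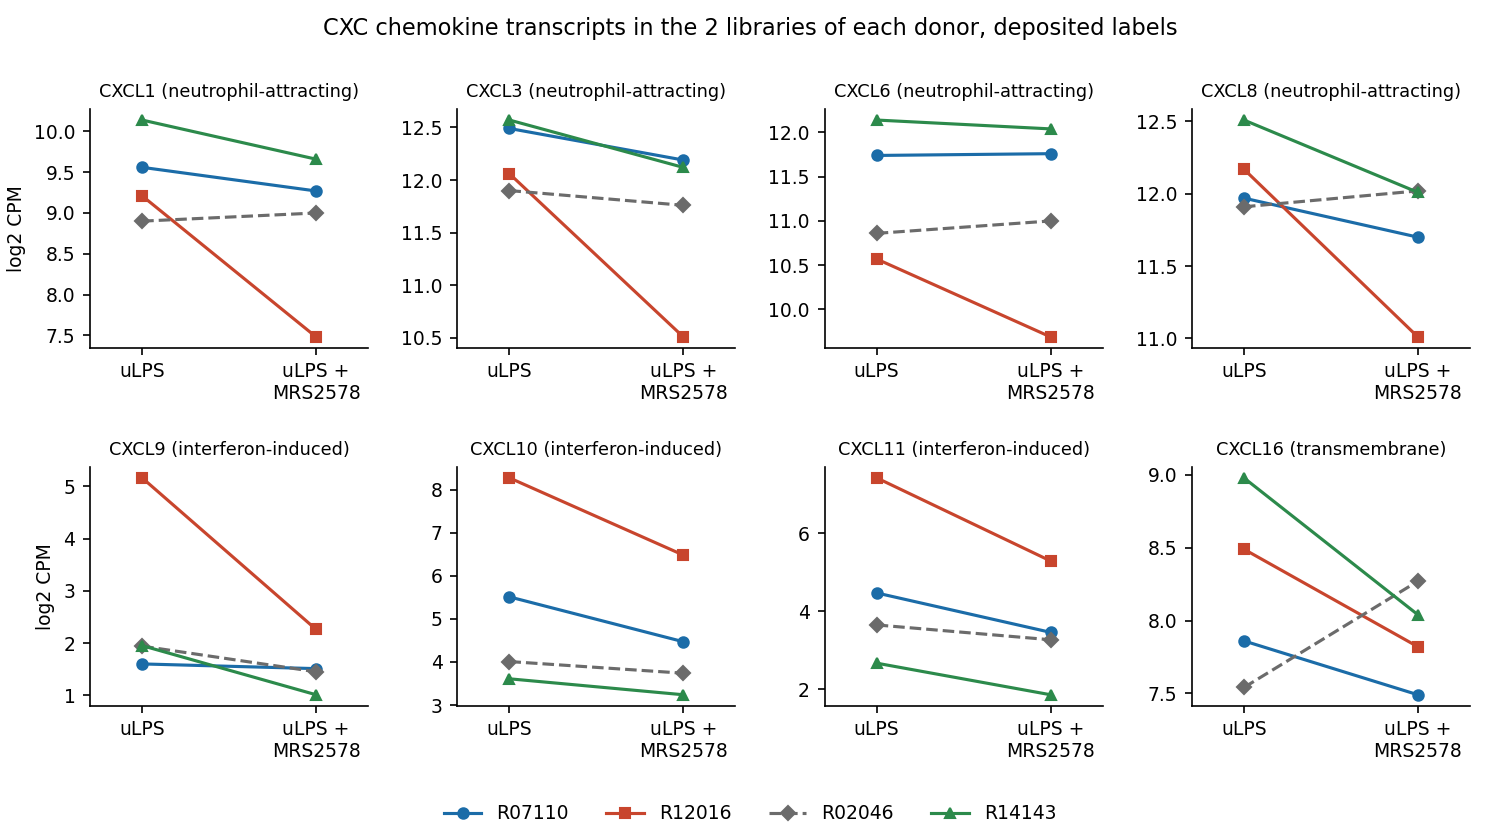
Level of each tested member, as log2 CPM, in the uLPS and the uLPS and MRS2578 library of each of 4 donors as labelled, joined by a line per donor (R02046 dashed); the vertical scales differ between panels and do not start at 0. Lines of R07110, R12016 and R14143 run downwards in all panels except R07110 in CXCL6, and the steepest CXCL9 line, of R12016, runs from 5.16 to 2.26.

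Directions within animals were more uniform than the tests. In the 3 donors whose condition is not in dispute, 7 of the 8 tested members were lower with MRS2578 in every one, against 19.8% of all tested genes. CXCL6 was the exception. In all 4 donors as labelled, CXCL3, CXCL9, CXCL10 and CXCL11 were lower, 4 of 8 members against 6.49% of all genes. CXCL1, CXCL8 and CXCL16 were lower in those 3 donors and higher in R02046 as labelled, 3 of 8 against 13.2%.

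Together the ELR genes CXCL1, CXCL3, CXCL6 and CXCL8 took 0.463 to 1.72% of all counts in a library, a share of reads that also reflects transcript length. CXCL8, which encodes interleukin-8, was at 4020, 4600, 3860 and 5820 CPM with uLPS and at 3330, 2060, 4140 and 4110 CPM with MRS2578, in the order R07110, R12016, R02046 and R14143. The ranges of both conditions overlapped, and the 3 undisputed donors were lower while R02046 as labelled was higher. The fitted log2 fold change of CXCL8 (ENSMMUG00000060156) was -0.46 (SE 0.24, adjusted p = 0.878, n = 4 donors), -0.51 (SE 0.18, adjusted p = 0.232) with R02046 exchanged and -0.64 (SE 0.22, adjusted p = 0.307) without it. Without R12016 it was -0.22 with the deposited labels, so the size of the difference rests to a large extent on that animal.

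CXCL1 (ENSMMUG00000008367), the classic growth-regulated ligand of CXCR2, was at 756, 591, 476 and 1120 CPM with uLPS and at 616, 178, 511 and 811 CPM with MRS2578 in the same order of donors. Only R12016 departed far from the others, its level with MRS2578 being 30.2% of that with uLPS. The mean level was 737 ± 283 against 529 ± 265 CPM (SD, n = 4), and the log2 fold change was -0.59 (SE 0.28, adjusted p = 0.878). The value became -0.64 (SE 0.24, adjusted p = 0.25) with R02046 exchanged, -0.82 (SE 0.29, adjusted p = 0.313) without R02046 and -0.22 without R12016.

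CXCL3 (ENSMMUG00000051444), which binds the same receptor, was at 5750, 4280, 3820 and 6090 CPM with uLPS and at 4660, 1460, 3470 and 4460 CPM with MRS2578. Of the 4 tested ELR members, it alone was lower in all 4 animals as labelled, with log2 differences from -1.55 to -0.14. The fitted log2 fold change was -0.60 (SE 0.27, adjusted p = 0.878), -0.53 (SE 0.25, adjusted p = 0.346) with R02046 exchanged, -0.76 (SE 0.29, adjusted p = 0.336) without R02046 and -0.29 without R12016. How far the loss of reads that fit both CXCL1 and CXCL3 affects these values was not tested.

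CXCL6 (ENSMMUG00000062421), a ligand of both CXCR1 and CXCR2, moved least. It was at 3410, 1520, 1860 and 4510 CPM with uLPS and at 3460, 825, 2040 and 4210 CPM with MRS2578, with log2 differences of 0.02, -0.88, 0.13 and -0.10, so that R12016 alone stood apart. The log2 fold change was -0.20 (SE 0.21, adjusted p = 0.909), -0.27 (SE 0.17, adjusted p = 0.458) with R02046 exchanged and -0.32 (SE 0.22, adjusted p = 0.584) without it, and it was 0.02 without R12016. CXCL5 (ENSMMUG00000045102), the neighbour of this family that many epithelial cells make, had 14, 3, 1 and 10 counts with uLPS and 1, 1, 0 and 4 with MRS2578. These counts lie near the limit of detection, and with no filter on low counts its adjusted p was 0.879.

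The interferon-induced transcripts varied over a wide range between animals, to a large extent through R12016. CXCL9, CXCL10 and CXCL11 together took 0.00152 to 0.0479% of counts, from the lowest library to the highest. With uLPS alone, the highest donor exceeded the lowest 12.2-fold for CXCL9, 25.6-fold for CXCL10 and 27.4-fold for CXCL11. The same ratio was 1.51 for CXCL8, 1.6 for CXCL3, 2.36 for CXCL1, 2.96 for CXCL6 and 2.71 for CXCL16. R12016 was the highest in each of the 3 interferon-induced genes. The other donors with uLPS were at 2.92 to 3.76 CPM for CXCL9, 12.1 to 45.6 for CXCL10 and 6.25 to 22.1 for CXCL11.

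CXCL10 (ENSMMUG00000020903), a ligand of CXCR3, was at 45.6, 309, 16 and 12.1 CPM with uLPS and at 22, 89.2, 13.2 and 9.34 CPM with MRS2578. All 4 animals as labelled were lower with MRS2578, with log2 differences of -1.05 and -1.79 in R07110 and R12016 and of -0.27 and -0.37 in R02046 and R14143. The spread between animals exceeded the difference within each of them, and the conditions overlapped. The fitted log2 fold change was -0.91 (SE 0.25, adjusted p = 0.878), -0.83 (SE 0.29, adjusted p = 0.217) with R02046 exchanged, -1.12 (SE 0.26, adjusted p = 0.191) without R02046 and -0.59 without R12016. It had the 84th smallest p of all genes tested.

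CXCL11 (ENSMMUG00000053130), which binds CXCR3 and the scavenging receptor ACKR3, was at 22.1, 171, 12.5 and 6.25 CPM with uLPS and at 10.9, 39.2, 9.51 and 3.52 CPM with MRS2578. It followed CXCL10 in direction in each animal, with log2 differences of -1.01, -2.13, -0.39 and -0.81 as labelled. The fitted log2 fold change of -1.14 (SE 0.27, adjusted p = 0.878) ranked 23rd by p among all genes. The value became -1.02 (SE 0.35, adjusted p = 0.203) with R02046 exchanged, -1.40 (SE 0.27, adjusted p = 0.16) without R02046 and -0.76 without R12016.

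CXCL9 (ENSMMUG00000043801), the third ligand of CXCR3 and the one most dependent on interferon-gamma, had 96, 558, 35 and 74 counts with uLPS and 68, 74, 36 and 34 with MRS2578. In CPM this was 2.92, 35.6, 3.74 and 3.76 against 2.75, 4.68, 2.63 and 1.9. A single animal, R12016, thus carried most of the difference, with 13.1% of its uLPS level left. The log2 fold change was -1.21 (SE 0.48, adjusted p = 0.878), -1.15 (SE 0.52, adjusted p = 0.326) with R02046 exchanged, -1.47 (SE 0.56, adjusted p = 0.339) without R02046 and -0.48 without R12016.

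The low counts of this group limit what the disputed donor can show. In R02046 as labelled, the level with MRS2578 was 70.5% of that with uLPS for CXCL9 (95% interval 43 to 116%), 82.7% for CXCL10 (66.2 to 103%) and 76.1% for CXCL11 (58.9 to 98.6%). The intervals are exact binomial ones from the counts of both libraries and cover counting error only, not that between cultures. Summed over the 3 genes, 302 and 347 counts gave 78.7% (67.3 to 92.2%). The CXCL9 difference of R07110, 94% (67.9 to 130%), was also not detectable at this depth.

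CXCL16 (ENSMMUG00000004891) was the member most affected by the assignment of R02046. It was at 233, 360, 186 and 503 CPM with uLPS and at 180, 226, 308 and 264 CPM with MRS2578, the R02046 libraries differing by 0.73 on the log2 scale in the opposite direction to the rest. After the exchange all 4 donors were lower, with log2 differences from -0.93 to -0.37, and the difference passed the test (log2 fold change -0.68, SE 0.11, adjusted p = 0.0444), with means of 351 ± 114 and 214 ± 39 CPM (SD, n = 4). With the deposited labels it was -0.32 (SE 0.26, adjusted p = 0.901), and without R02046 -0.66 (SE 0.13, adjusted p = 0.161). After the exchange the call was lost without R07110 (adjusted p = 0.259) and without R12016 (adjusted p = 0.15), with log2 fold changes of -0.78 and -0.67, and, at -0.71, without the donor block. The summed microglia and macrophage markers ran the same way as CXCL16 in each donor. The sums went from 4890 to 4230 CPM for R07110, 5150 to 4340 for R12016, 4400 to 5050 for R02046 as labelled and 4300 to 3950 for R14143. Single markers did not all follow the sum. Of those tested, AIF1, P2RY12, TREM2 and ITGAM were higher with MRS2578 in R12016, and CSF1R, C1QB, CD68, SPI1 and PTPRC were lower. The part of these markers in the CXCL16 result was not tested.

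**Figure D2:**
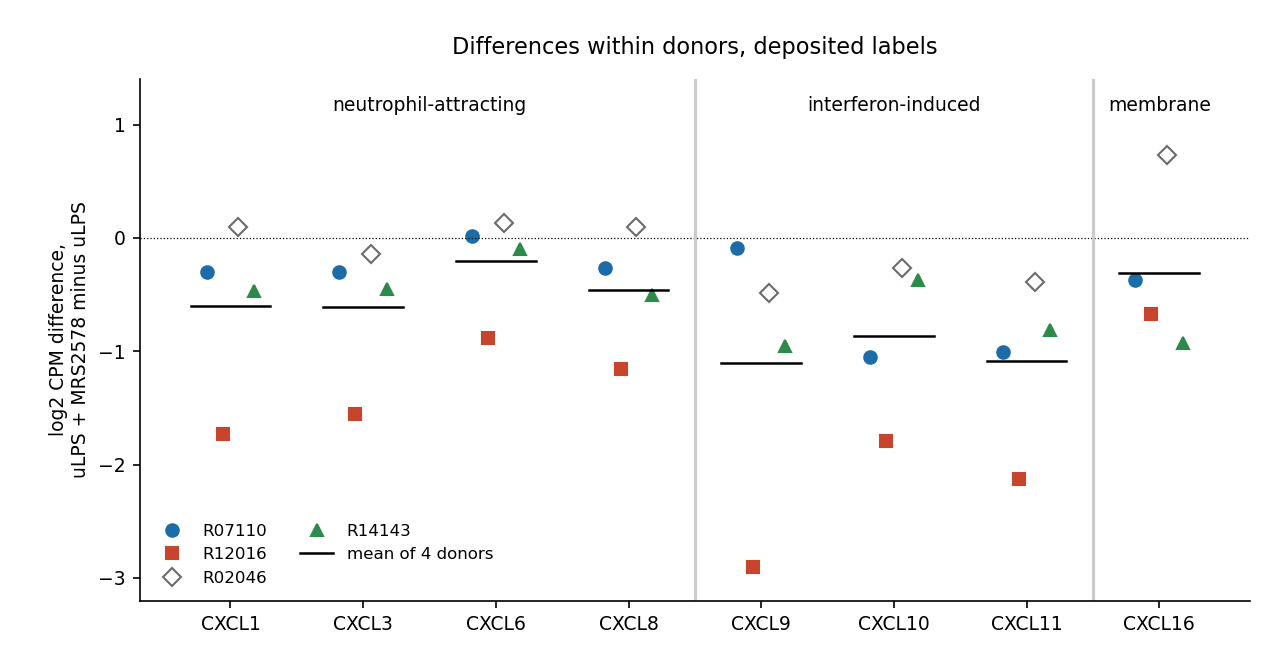
Difference in log2 CPM, uLPS and MRS2578 minus uLPS, of each tested member in each of 4 donors as labelled, with the mean of the donors as a bar and R02046 as open diamonds. R12016 lies lowest for all genes except CXCL16, where R14143 is lowest at -0.93 and R02046 is at 0.73.

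Contrasted as groups, the interferon-induced members were lower by more than the ELR members in each animal as labelled. The mean log2 difference over CXCL1, CXCL3, CXCL6 and CXCL8 was -0.21, -1.33, 0.05 and -0.38 in that order of donors. Over CXCL9, CXCL10 and CXCL11 it was -0.71, -2.27, -0.38 and -0.71. The ELR mean minus the interferon-induced mean was thus 0.50, 0.94, 0.43 and 0.33, or 0.55 ± 0.27 (SD, n = 4 donors). No test was made of this score, because the genes and groups were chosen with results of these data known.

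The contrast depended on R02046. After the exchange its value there was -0.43, the ELR mean being -0.05 and the interferon-induced mean 0.38, and the contrast over donors was 0.34 ± 0.57 with 3 of 4 donors above 0. Without R02046 it was 0.59 ± 0.32 (n = 3). Without R12016, the animal with the largest differences, it was 0.42 ± 0.09 (n = 3) as labelled and 0.13 ± 0.50 (n = 3) after the exchange. The direction in the 3 undisputed animals was shared, while its mean with the exchange lay within the spread between animals.

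**Figure D3:**
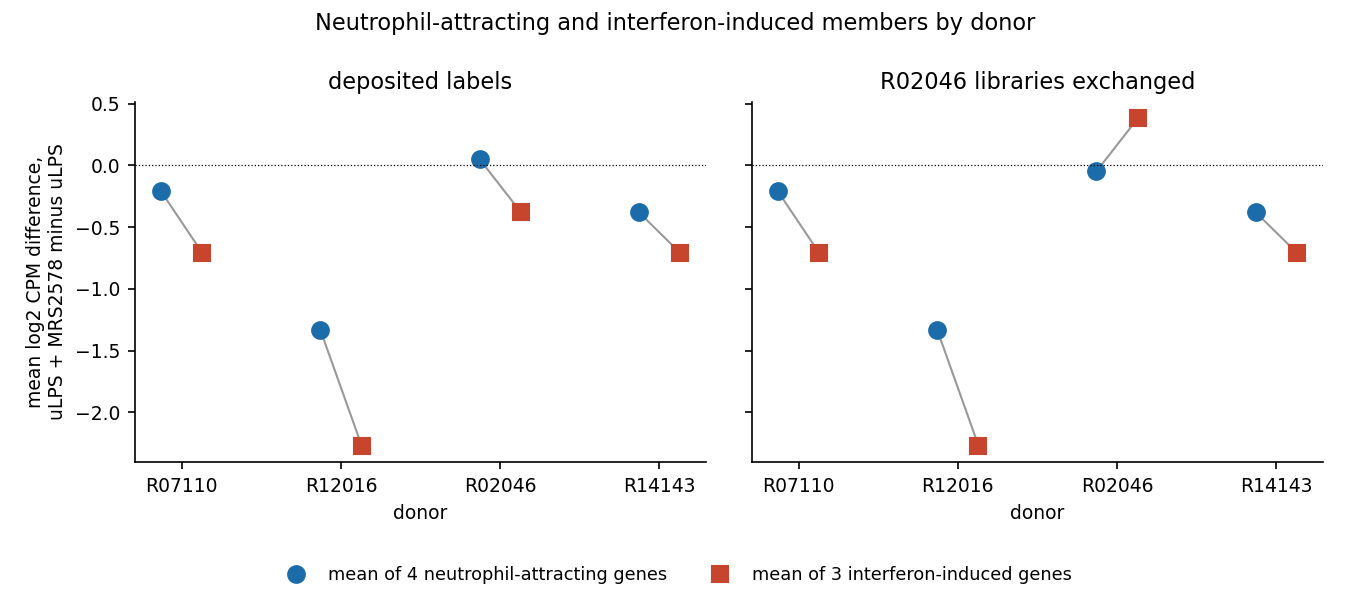
Mean log2 CPM difference, uLPS and MRS2578 minus uLPS, over the 4 ELR (neutrophil-attracting) genes and the 3 interferon-induced genes in each of 4 donors, as labelled on the left and with the R02046 libraries exchanged on the right. The interferon-induced mean lies below the ELR mean in all 4 donors on the left and in 3 of 4 on the right, where R02046 is at 0.38 against -0.05.

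In amounts, the summed ELR level with MRS2578 was 86.6, 41.2, 102 and 77.5% of that with uLPS in the same order of donors as labelled, and the summed CXCR3-ligand level was 50.5, 25.8, 78.7 and 66.8%. The ratio of CXCL10 to CXCL8 was also taken within each library. Per 1000 CXCL8 counts there were 11.3, 67.3, 4.15 and 2.08 CXCL10 counts with uLPS and 6.62, 43.3, 3.2 and 2.27 with MRS2578. It was lower in 3 animals as labelled and slightly higher in R14143, and the exchange turns the direction in R02046. In R14143 the summed fibroblast and mural markers also differed, from 985 CPM with uLPS to 365 CPM with MRS2578, against 125 and 193, 80.7 and 188, and 318 and 397 CPM in R07110, R12016 and R02046; their part in the chemokine values was not tested.

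**Figure D4:**
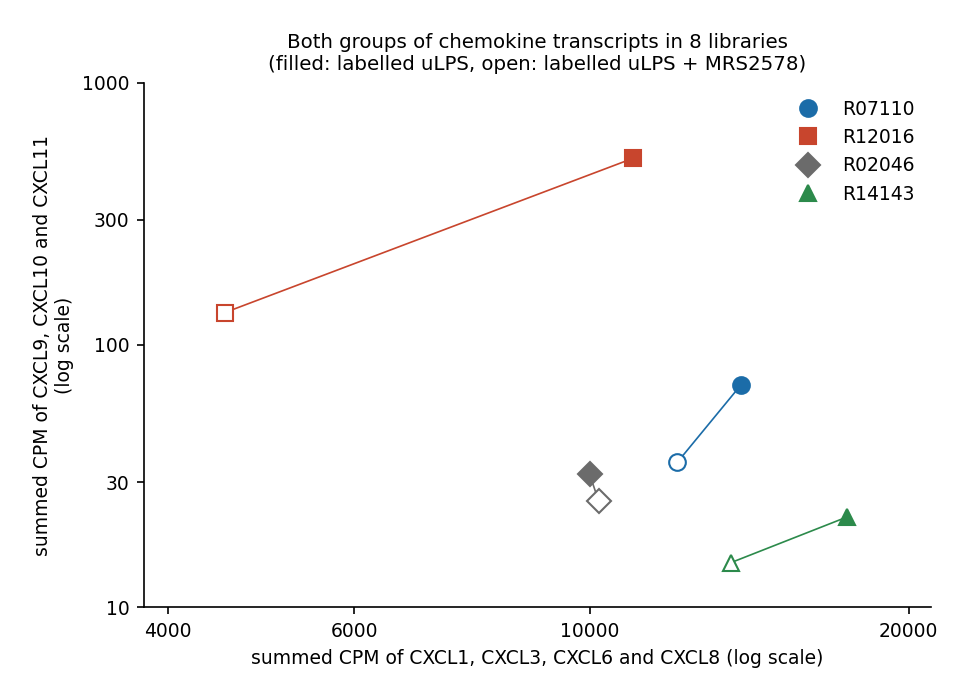
Summed CPM of the 3 interferon-induced genes against that of the 4 ELR genes in each of 8 libraries on log axes, filled for uLPS and open for uLPS and MRS2578 as labelled, with a line per donor. R12016 lies above the others, at 516 and 133 CPM of the interferon-induced genes, and the libraries of R14143 lie lowest, at 22.1 and 14.8 CPM.

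The levels of the groups also varied separately between animals. R12016 had the highest interferon-induced levels in both conditions and the lowest CXCL6, while R14143 had the highest CXCL1, CXCL3, CXCL6 and CXCL8 with uLPS and the lowest CXCL10 and CXCL11. Over the 8 libraries, Pearson's r of log2 CPM was 0.86 to 0.98 between interferon-induced members and 0.68 to 0.97 between ELR members. Between the groups it was -0.68 to 0.12. CXCL16 had r of 0.22 to 0.66 with ELR members and 0.04 to 0.34 with the others. The 8 points are pairs from 4 animals, R12016 stands apart in them, and no p is given. By the same measure the genes most like CXCL8 were PARP6 (r = 0.984), DHX36 (0.975) and ROBO3 (0.969), those most like CXCL10 were LYSMD2, APOBEC3A (both 0.99) and SAMD4A (0.989), and those most like CXCL16 were PRDM1 (0.976), MARCHF7 (0.97) and FOXN2 (0.955). The differences within donors, unlike the levels, ran together across the groups. As labelled (n = 4 donors), their r was 0.83 to 0.98 between ELR and interferon-induced members. It was 0.73 to 0.96 between interferon-induced members. R12016 had the lowest difference in each of these genes, and no p is given.

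Of the other CXC ligands, 4 of 6 were tested, and 3 had a log2 fold change below 0 and 1 above it (median -0.56, against -0.01 for all genes). None passed with the deposited labels. The platelet basic protein gene PPBP, whose product is cut to a CXCR2 ligand, was at -1.23 (SE 0.42, adjusted p = 0.878), and it fell by 1.54 on the log2 scale with R02046 exchanged (adjusted p = 0.0458). Without R02046 it was at -1.59 and did not pass (adjusted p = 0.138). Its level was low, 0.747 to 10.4 CPM over the libraries. PF4 was at -0.47, CXCL12 at -0.65 and CXCL14 at 0.70, all with adjusted p above the threshold under both assignments. CXCL13 and CXCL17 had 0 counts in all libraries.

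Of 8 CXC receptor genes, 4 were tested, with 3 log2 fold changes above 0, 1 below and a median of 0.14. CXCR2, the receptor of the ELR ligands, was at 1.98 to 9.73 CPM, and its log2 fold change, 0.48 as labelled (SE 0.20, adjusted p = 0.878), was 0.05 with R02046 exchanged and 0.37 without that donor. CXCR3 had at most 1 count and CXCR6 had 0 counts in all libraries, so transcripts of the signalling receptor of the interferon-induced ligands and of the CXCL16 receptor were at or below the limit that a count of 0 allows. CXCR5, which binds CXCL13, was at -0.35 (SE 0.55, adjusted p = 0.942) as labelled and fell by 1.35 on the log2 scale with R02046 exchanged (adjusted p = 0.0458). Without R02046 it was at -1.16 and did not pass (adjusted p = 0.16). CXCR4 was at 0.02 and ACKR3 at 0.25, with no call under either assignment.

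The 4 enzymes that process these ligands were all tested, with 2 log2 fold changes below 0 and 2 above it (median -0.06). ADAM10 (0.06, 202 to 250 CPM) and ADAM17 (0.02, 293 to 427 CPM), which shed CXCL16, lay close to 0. MMP9, which trims ELR ligands, was at 9210 to 20800 CPM with a log2 fold change of -0.14, and DPP4, which trims the CXCR3 ligands, was at -0.28 and at most 1.66 CPM. No enzyme passed the test under either assignment or without R02046.

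The wider programmes of each group were read from lists. Of 22 interferon-response genes, 18 were listed and 16 tested. With the deposited labels all 16 had a log2 fold change below 0 (median -0.43), with none called. The lowest were ISG15 (-0.91), IRF7 (-0.69), RSAD2 (-0.67) and IDO1 (-0.66). After the exchange 15 of 16 were below 0 (median -0.59) and IDO1, an interferon-induced tryptophan-degrading enzyme, fell by 1.04 on the log2 scale (adjusted p = 0.0427). Without R02046 it was 15 of 16 with a median of -0.67 and no call. With uLPS alone, the mean log2 CPM of these 16 genes was 7.72, 8.83, 6.86 and 7.26 in R07110, R12016, R02046 and R14143, the same donor being highest as for CXCL9, CXCL10 and CXCL11. IFNG had 0 counts in all libraries, and IFNB1 had 0 to 17.

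In R02046, however, this list and the CXCR3 ligands did not run together. The mean of the 16 genes was 6.86 with uLPS and 7.19 with MRS2578 as labelled, while CXCL9, CXCL10 and CXCL11 were lower with MRS2578. In the other 3 donors both were lower with MRS2578. Of 14 tested NF-kB-dependent and IL-17-type genes, 12 had a log2 fold change below 0 and 2 above it as labelled (median -0.54), with CSF2 (-1.32), IL6 (-1.31), TNFAIP6 (-1.18) and IL1A (-0.93) lowest and none called. Their mean log2 CPM in R02046 was 5.72 with uLPS and 6.07 with MRS2578 as labelled. CXCL1, CXCL6 and CXCL8 were also higher there, whereas CXCL3 was lower (log2 difference -0.14). After the exchange the median was -0.77 with 13 of 14 below 0, and TNFAIP6, which binds hyaluronan and CXCL8, fell by 1.63 on the log2 scale (adjusted p = 0.0358). Without R02046 the median was -0.84 with none called, and TNFAIP6 was at -1.67 (adjusted p = 0.133).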

How the data were processed

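Raw read counts per gene were deposited by the authors for 8 libraries, and the counts were analysed as deposited. The submitters' processing notes name Trimmomatic 0.30, TopHat2 2.0.14, SAMtools 1.3 and HTSeq 0.6.1p1 on build Mmul_10, whereas the methods name fastp, STAR, SAMtools and HTSeq. Which was used for these files, the strand setting and the annotation release are not given in the sources used here. The kit was directional.

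Conditions were taken from the sample labels, and R02046 was also analysed with its 2 libraries exchanged and left out. Genes were filtered with filterByExpr, scaled by TMM and tested with edgeR 4.0.16 (quasi-likelihood test) under R 4.3.3 with limma 3.58.1. The donor was a block and Benjamini-Hochberg adjustment ran over all genes tested, with a threshold of 0.05. Pairing comes from the donor labels. Deviations of same-donor libraries from the condition means correlated at 0.602, 0.552, 0.458 and 0.562 over 12131 genes. Log2 CPM used a prior count of 2. No libraries were duplicates, the lowest chi-square per degree of freedom being 15.8. The donors were separate animals.

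The step was tested on simulated data for the comparison of uLPS and MRS2578 with uLPS. With 200 of 12042 genes changed 3-fold, 193 were recovered among 197 calls, and with none changed 0 of 12065 were called. Recovery of differences smaller than 3-fold, or of differences that vary in size between donors, was not tested. The differences of the tested members were smaller: as labelled, their fitted levels with MRS2578 were 43.1% (CXCL9) to 86.8% (CXCL6) of those with uLPS. They also varied between donors, the SD of the log2 difference as labelled being 0.46 (CXCL6) to 1.25 (CXCL9). The simulated recovery therefore does not tell how many such differences the test would find in these libraries. Alternatives were DESeq2 1.42.0, edgeR's likelihood ratio and legacy tests, DESeq2 size factors, other filters, no block, and each donor left out.

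The genes and lists were chosen with earlier results of these data known. All CXC members are named, and from each list of other CXC ligands, receptors, enzymes, interferon-response and NF-kB genes at most 4 of largest change and any called. The 3 genes of highest correlation with CXCL8, CXCL10 and CXCL16 are also named. Cell type lists covered microglia, neutrophils, T and NK cells, astrocytes, oligodendrocytes, endothelium, and fibroblasts and mural cells.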

Additional observations from a re-analysis of the deposited data

Results flagged for a closer look

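CXCL9 with uLPS alone stood at a log2 CPM of 5.16 in R12016, far from the other donors, of which the next was at 1.95 and the lowest at 1.60. It was 1 of 25 sets of 4 donors examined, of which chance alone flags about 1 in 20. R12016 also had the highest CXCL10 and CXCL11 with uLPS. Its CXCL9 level rests on 558 counts.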

How the results depend on the processing

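Exchanging the R02046 libraries gave 75 called genes of 12131 in place of 0, and 1 member (CXCL16, log2 fold change -0.68) in place of 0. After the exchange the likelihood ratio test called 616 of 12131 genes and DESeq2 583, each with 1 member, CXCL16, among them. With each other donor left out after the exchange, 0 to 1 members were called, the 1 being without R14143. As labelled, DESeq2 called 1 gene and the likelihood ratio test 5, no member among them. CXCL6 was at 0.02 without R12016, the range with each donor left out being -0.32 to 0.02. The contrast was 0.42 to 0.63 with each donor left out as labelled. After the exchange it was 0.13 without R12016, 0.28 without R07110 and 0.34 without R14143. The cause was not tested.

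Leaving out the donor block (no pairing) gave 0 called genes and 0 members, with log2 fold changes of -1.94 for CXCL9, -1.52 for CXCL10 and -1.76 for CXCL11, larger than with the block, and of -0.48 for CXCL1. After the exchange it gave 0 members, so the call of CXCL16 is lost there. Other filters, scalings, a prior count of 0.25 (contrast 0.56) and medians over members (0.59) kept directions and calls. Depth limits CXCL9 most, with 35 to 558 counts per uLPS library: its intervals within R07110 and R02046 include no difference, as does that of CXCL10 within R02046.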
